A study of Mus musculus with 10 samples.

Results

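The primary cilium is a single antenna-like projection that bile duct cells hold out into the lumen of the duct, where it senses the flow and content of bile. It is built and maintained by intraflagellar transport, in which kinesin-2 carries trains of IFT-B and IFT-A proteins to the tip and dynein-2 brings them back to the base. The BBSome links membrane cargo to these trains, and the transition zone at the base gates what enters. Inherited loss of such proteins causes ciliopathies, in several of which the bile ducts are malformed or cystic and the portal tract fibrotic. The genes described here are 44 named parts of this machinery, listed by function but chosen with earlier results of these data known. Of these, 42 had a probe set with exactly 1 gene symbol among the 22180 genes measured, and Arl6 and Tctn1 were not analysed here. They comprise 11 IFT-B genes, 6 IFT-A genes, 9 genes of the BBSome and its assembly chaperones, 5 motor genes, 8 transition zone genes, and 3 genes called here cyst protein genes, Invs, Pkhd1 and Pkd1.

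The values come from portal tracts, the regions of the liver that hold bile duct, portal vein and hepatic artery, isolated by laser capture from cryosections of livers taken at 1 week of age. Each replicate pooled 12 to 20 tracts. Of the 10 single-colour arrays, 5 carried RNA of Jag1+/-Rfng+/- mice and 5 RNA of controls, whose strain is given as C57Bl/6J. Jag1 encodes a Notch ligand and Rfng a fringe glycosyltransferase that modifies Notch, and Jag1+/-Rfng+/- mice carry 1 mutant copy of each. The type of either allele, the strain of the Jag1+/-Rfng+/- mice and the genotype of the controls beyond that word are not given, and no label says that each sample is a separate mouse, so every p-value refers only to sample-to-sample spread, which may be technical.

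Each value is on a log2 scale, where a difference of 1 is a doubling, and values of different probe sets are not set against each other. Array medians lay between 3.22 and 3.30. The array that differed most was Jag1+/-Rfng+/- replicate 5 (correlation 0.956 to 0.963 with the rest, which reached 0.969 or more among themselves). The name of that sample ends in excl, and whether the submitters set the array aside is unknown. The array was kept in the main fit, and fits without it are given below. Erythroid markers averaged 2.15 above the control mean on it, against -0.41 to 0.39 on the other arrays. What an absent gene reads was taken from Y-linked genes on the 4 arrays with high Xist and from Xist on the other 6, which gave 1.82 to 2.91. Rfng averaged 4.36 ± 0.16 in Jag1+/-Rfng+/- and 4.82 ± 0.20 in controls (SD, n = 5 each; two-sided exact permutation p = 0.00794, the lower limit for groups of 5). Jag1 averaged 4.39 ± 0.63 in Jag1+/-Rfng+/- and 5.72 ± 0.93 in controls (SD, n = 5 each; exact permutation p = 0.0556, two-sided). It differed by -1.33, and by -1.61 without control replicate 4 (exact permutation p = 0.0159) and -1.53 without control replicate 5 (exact permutation p = 0.0476). Leaving out any other array gave differences of -1.50 to -1.11 with exact permutation p between 0.0556 and 0.0952. Hepatocyte RNA was present throughout, with Alb at 12.08 to 12.20 in Jag1+/-Rfng+/- and 12.13 to 12.27 in controls. Of 13 biliary markers, 12 had a mean above the range of absent genes, and Cftr, a chloride channel of bile duct cells, read no higher than absent genes on any array, at 1.81 to 2.14 in Jag1+/-Rfng+/- and 1.76 to 2.30 in controls.

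Of the 44 genes, 5 carry an X-box in the promoter, shown here because X-boxes are the sites through which RFX transcription factors are known to switch on ciliary genes. The X-box was searched as GTTNCC and GGNAAC with 0 to 3 bases between them, a pattern that reads the same on both strands, in windows of 250 bases before to 50 bases after each RefSeq gene start (GRCm38.p6). The first line is the whole Ift57 window (chr16:49699044-49699343, plus strand), and the others are the X-box with up to 20 bases on each side. These stretches are from Bbs7 (chr3:36613477-36613530, minus strand), Mks1 (chr11:87853171-87853224, plus strand), Tctn1 (chr5:122264411-122264444, minus strand) and Ahi1 (chr10:20952548-20952596, plus strand). All are written 5′ to 3′ with the X-box in capitals. Relative to the gene start, the X-box began at -60 in Ift57, -121 in Bbs7 and -24 in Mks1. In Tctn1 and Ahi1 it began after the gene start, at 36 and 21, and another Ahi1 window held none.
Ift57: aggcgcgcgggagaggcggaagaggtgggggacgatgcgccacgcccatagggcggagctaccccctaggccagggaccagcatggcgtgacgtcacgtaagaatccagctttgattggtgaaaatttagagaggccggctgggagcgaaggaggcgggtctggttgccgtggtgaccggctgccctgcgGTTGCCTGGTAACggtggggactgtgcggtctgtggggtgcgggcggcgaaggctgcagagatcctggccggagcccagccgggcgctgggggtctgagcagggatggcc
Bbs7: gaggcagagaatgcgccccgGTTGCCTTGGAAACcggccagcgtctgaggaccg
Mks1: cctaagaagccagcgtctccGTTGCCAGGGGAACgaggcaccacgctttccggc
Tctn1: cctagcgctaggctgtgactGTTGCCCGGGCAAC
Ahi1: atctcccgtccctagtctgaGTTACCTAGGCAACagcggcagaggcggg

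Windows were at hand for 39 of the 44 genes, and 5 of them, or 12.8%, held the X-box, against 0.936% of all 27025 genes with windows of the same length. The arm GTTGCC alone, on either strand and overlapping the X-box where there is one, was found in 16 of the 39, or 41%, against 14.1% of all genes. By subgroup the X-box was found for 3 of 8 transition zone genes, 1 of 9 IFT-B genes and 1 of 10 BBSome genes, and for 0 of 5 IFT-A, 0 of 4 motor and 0 of 3 cyst protein genes. The windows of these genes were also richer in CpG, with a median of 20 CpG per window, against 14 over the genes tested on the arrays and 7 over all genes. A match describes letters only. Of the 15 measured genes with GTTGCC, 10 lay lower in Jag1+/-Rfng+/-, 1 of them at an unadjusted p under 0.05, with a median difference of -0.13. Of the 22 without it, 19 lay lower, 6 of them at that p, with a median of -0.20. Whether these sets differ was not tested. Of the 4 measured genes with a whole X-box, Ift57 lay lower in Jag1+/-Rfng+/- as described next, while Bbs7 differed by 0.00 ± 0.15, Mks1 by 0.00 ± 0.13 and Ahi1 by 0.10 ± 0.11 (log2, SE). Ahi1 read within the range of absent genes on all 10 arrays, so its difference gives no direction.

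Cilium genes leaned lower in Jag1+/-Rfng+/- portal tracts by small amounts, and 0 of the 42 passed an adjusted p of 0.05 in limma (lowest adjusted p = 0.489). Of the 42 genes, 34 were lower and 8 higher, with differences between -0.70 and 0.22 and a median of -0.15, while over all genes 51.5% were lower and the median was -0.01. At an unadjusted p under 0.05, 8 genes were lower, or 19%, and 0 higher, where 3.79% of all genes were lower and 2.98% higher by the same rule. Among all genes 2, or 0.00902%, passed the adjusted threshold. For 2 genes, Rpgrip1l and Ift80, all Jag1+/-Rfng+/- values lay below all control values, as they did for 0.766% of all genes, and for 0 genes all lay above, against 0.618%. Of all genes 8254 had a mean in the range of absent genes, against 2 of the 42. Among all genes above that range 54.4% were lower, 5.31% at an unadjusted p under 0.05, and 1.02% had all Jag1+/-Rfng+/- values below all control values. The shares of the 40 cilium genes above it were 82.5%, 20% and 5%. In captured tissue, fewer cells of a type and less RNA per cell cannot be told apart.

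**Figure D1:**
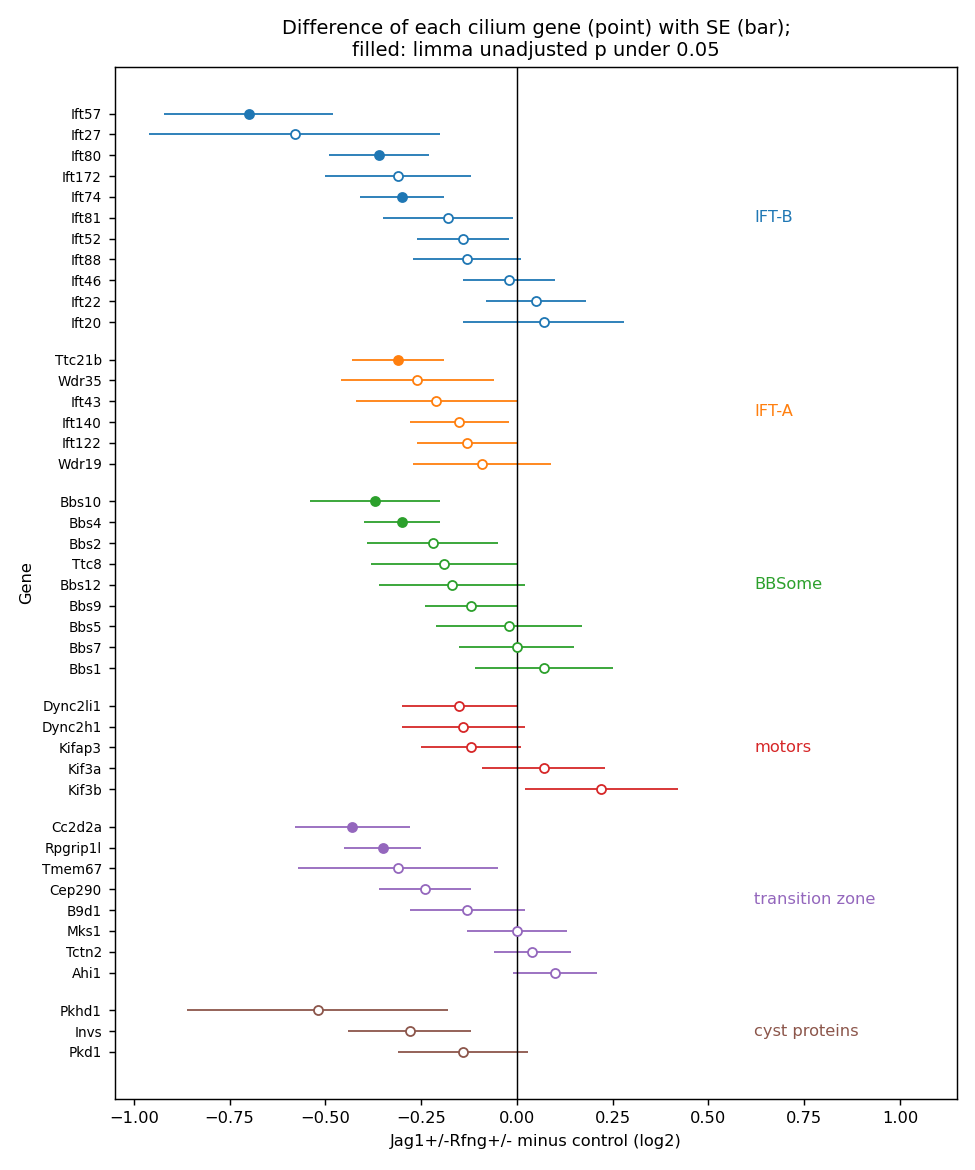
Log2 difference, Jag1+/-Rfng+/- minus control, of each of the 42 cilium genes (point) with its SE (bar), by subgroup; filled points have a limma unadjusted p under 0.05. Of the 42 points, 34 lie left of 0, and the 8 filled ones are all among them.

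The IFT-B genes held the largest single difference. Ift57, which encodes a peripheral IFT-B protein, read 4.66, 4.51, 4.52, 4.72 and 4.12 in Jag1+/-Rfng+/- replicates 1 to 5 and 5.15, 5.04, 6.08, 5.08 and 4.68 in control replicates 1 to 5. Only Jag1+/-Rfng+/- replicate 4 reached into the control range, just above control replicate 5. The difference was -0.70 ± 0.22 log2 (SE), 1.63-fold lower (limma adjusted p = 0.564).

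Ift80, another IFT-B gene, whose mutation in humans causes a skeletal ciliopathy with a narrow chest, read 3.02, 2.46, 2.80, 3.05 and 3.10 in Jag1+/-Rfng+/- and 3.18, 3.18, 3.43, 3.17 and 3.27 in controls. The groups did not overlap, but Jag1+/-Rfng+/- replicates 2 and 3 read as low as absent genes do. Its difference of -0.36 ± 0.13 log2 (SE; limma adjusted p = 0.618) is therefore uncertain in size. Ift74, whose product pairs with that of Ift81 to carry tubulin, read 3.12, 3.29, 3.06, 3.41 and 3.12 in Jag1+/-Rfng+/- and 3.22, 3.45, 3.53, 3.66 and 3.64 in controls. The groups overlapped in 2 Jag1+/-Rfng+/- arrays and 1 control array, and the difference was -0.30 ± 0.11 log2 (SE; limma adjusted p = 0.632).

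The remaining 8 IFT-B genes did not reach an unadjusted p of 0.05. Ift27, a small GTPase that helps the BBSome leave the cilium, differed by -0.58 ± 0.38 log2 (SE), a value carried by control replicate 5 at 7.60, where the other controls read 5.23 to 5.81 and Jag1+/-Rfng+/- arrays 4.75 to 5.89. Ift88, the gene whose weakened allele gives the polycystic Oak Ridge mouse, read 3.48 to 4.00 in Jag1+/-Rfng+/- and 3.44 to 4.08 in controls, a difference of -0.13 ± 0.14 log2 (SE). Ift172 differed by -0.31 ± 0.19, Ift81 by -0.18 ± 0.17 and Ift52 by -0.14 ± 0.12, and Ift46, Ift22 and Ift20 lay between -0.02 and 0.07.

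The 6 IFT-A genes, needed for the return trip and for bringing membrane proteins into the cilium, were all lower, by 0.09 to 0.31 on the log2 scale. Ttc21b, which encodes an IFT-A protein and is mutated in nephronophthisis, read 3.36, 3.37, 3.32, 3.52 and 3.51 in Jag1+/-Rfng+/- and 3.99, 3.83, 3.78, 3.74 and 3.31 in controls. All Jag1+/-Rfng+/- arrays lay below control replicates 1 to 4, while control replicate 5 read lowest of all 10, and the difference was -0.31 ± 0.12 log2 (SE; limma adjusted p = 0.669). Wdr35 differed by -0.26 ± 0.20, with 2 Jag1+/-Rfng+/- arrays and 1 control array within the range of absent genes, and Ift140 by -0.15 ± 0.13. Ift43, Ift122 and Wdr19 differed by -0.21, -0.13 and -0.09.

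Of the 9 BBSome and chaperone genes, 8 lay lower and Bbs1 higher, with a median of -0.17, and the value of Bbs7 was 0.00 to 2 decimals. Bbs4, a core BBSome subunit that is mutated in Bardet-Biedl syndrome, read 3.07, 2.89, 2.93, 2.89 and 2.62 in Jag1+/-Rfng+/- and 3.26, 3.18, 2.99, 3.27 and 3.20 in controls. The groups overlapped by 1 array each, and 3 Jag1+/-Rfng+/- arrays lay in the range of absent genes, so the difference of -0.30 ± 0.10 log2 (SE; limma adjusted p = 0.609) is uncertain in size. Bbs10, a chaperonin-like protein that helps assemble the BBSome, read 3.72, 4.34, 3.58, 4.15 and 4.02 in Jag1+/-Rfng+/- and 4.44, 4.20, 4.09, 4.73 and 4.21 in controls. Jag1+/-Rfng+/- replicates 2 and 4 lay inside the control range and the other 3 below it, for a difference of -0.37 ± 0.17 log2 (SE; limma adjusted p = 0.722). Bbs2, another core subunit, differed by -0.22 ± 0.17 log2 (SE), and by -0.07 without control replicate 3, with 2 Jag1+/-Rfng+/- arrays within the range of absent genes. Bbs12, the second chaperonin-like gene, averaged 2.65 in Jag1+/-Rfng+/- and 2.82 in controls, within the range of absent genes. Ttc8, Bbs9 and Bbs5 differed by -0.19, -0.12 and -0.02.

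The motor genes showed the smallest shift of the 6 subgroups by their mean per array, which averaged -0.02 in Jag1+/-Rfng+/- relative to the control mean, and 0 of 5 reached an unadjusted p of 0.05. The kinesin-2 genes Kif3a and Kif3b read higher in Jag1+/-Rfng+/-, by 0.07 ± 0.16 and 0.22 ± 0.20 log2 (SE), and the gene of their adaptor Kifap3 differed by -0.12 ± 0.13. Kif3a read 4.47, 4.91, 4.77, 5.00 and 4.44 in Jag1+/-Rfng+/- and 4.46, 5.01, 4.93, 4.47 and 4.37 in controls, so the groups overlapped over nearly their whole range. The dynein-2 genes Dync2h1, the heavy chain, and Dync2li1, the light intermediate chain, differed by -0.14 ± 0.16 and -0.15 ± 0.15. Whether the motor genes differ from the transport genes was not tested.

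The transition zone genes split into 5 lower and 3 that read higher by 0.10 or less. Rpgrip1l, a scaffold of the transition zone whose mutation in humans causes Joubert and Meckel syndromes, had the lowest p of all 42 genes. It read 4.15, 4.16, 4.12, 4.20 and 4.02 in Jag1+/-Rfng+/- and 4.49, 4.34, 4.71, 4.30 and 4.58 in controls. The groups did not overlap and the Jag1+/-Rfng+/- arrays lay close together, so that a difference of only -0.35 ± 0.10 log2 (SE), 1.28-fold lower, was larger than the SD within either group, 0.07 in Jag1+/-Rfng+/- and 0.17 in controls (n = 5 each), but did not pass after adjustment over all genes (limma adjusted p = 0.489).

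Cc2d2a, which acts in vesicle docking and the MKS module of the transition zone and whose mutation in humans can bring liver fibrosis, read 4.62, 4.70, 4.92, 5.32 and 4.76 in Jag1+/-Rfng+/- and 5.29, 5.52, 5.52, 5.17 and 4.97 in controls. Jag1+/-Rfng+/- replicate 4 lay within the control range and the other 4 below it, and the difference was -0.43 ± 0.15 log2 (SE; limma adjusted p = 0.615). Cep290, which links the ciliary membrane to the microtubules, averaged 3.95 ± 0.15 in Jag1+/-Rfng+/- and 4.18 ± 0.22 in controls (SD, n = 5 each), a difference of -0.24 ± 0.12 (SE; limma adjusted p = 0.766).

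Tmem67, the membrane receptor-like protein of Meckel syndrome and of congenital hepatic fibrosis, read 3.60 in Jag1+/-Rfng+/- replicate 5 and 4.89 to 5.29 in the other 4, against 4.89 to 5.21 in controls. Without that array the groups covered much the same range. Its second probe set read 2.03 to 2.24 in Jag1+/-Rfng+/- and 2.00 to 2.24 in controls, within the range of absent genes, and gives no check. B9d1 differed by -0.13, Mks1 by 0.00 and Tctn2 by 0.04. Ahi1 read 2.30 to 2.75 in Jag1+/-Rfng+/- and 2.27 to 2.51 in controls, within the range of absent genes on all 10 arrays, so its difference of 0.10 gives no direction.

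**Figure D2:**
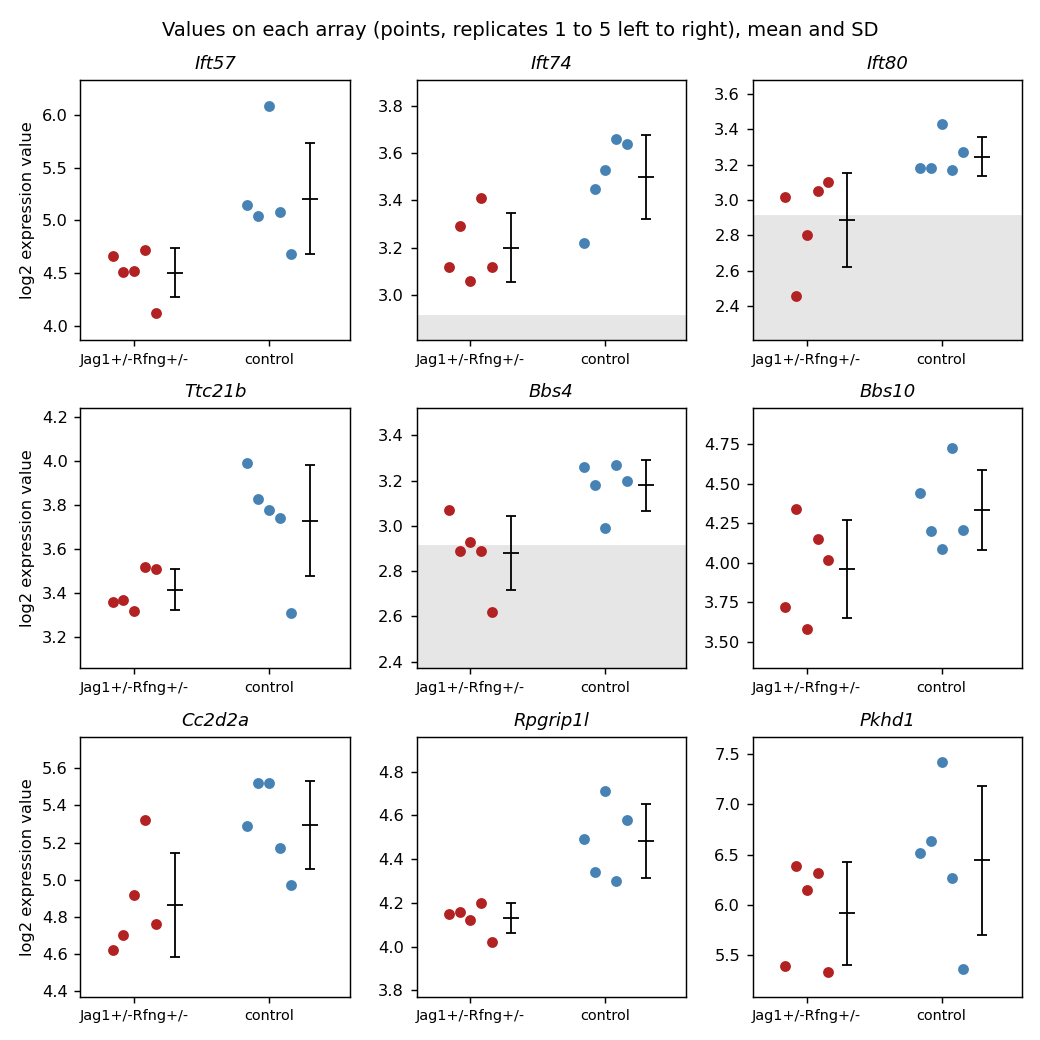
Log2 expression values on each array of the 8 genes with an unadjusted p under 0.05 and of Pkhd1 (points, Jag1+/-Rfng+/- left and control right, with mean and SD as the bar at the right of each group); the grey band is the range of 1.82 to 2.91 in which absent genes read. Rpgrip1l and Ift80 are the 2 genes whose groups do not overlap, and Bbs4 and Ift80 reach into the band.

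Of the cyst protein genes, Pkhd1, which encodes fibrocystin, the ciliary protein lost in autosomal recessive polycystic kidney disease and congenital hepatic fibrosis, varied most between arrays. It read 5.40, 6.39, 6.15, 6.32 and 5.34 in Jag1+/-Rfng+/- and 6.52, 6.64, 7.42, 6.27 and 5.37 in controls. The low arrays were Jag1+/-Rfng+/- replicates 1 and 5 and control replicate 5, and the difference of -0.52 ± 0.34 log2 (SE) did not pass (limma adjusted p = 0.817). It was -0.28 without control replicate 3 and -0.79 without control replicate 5. Invs, which encodes inversin of the proximal cilium, differed by -0.28 ± 0.16, and Pkd1, which encodes polycystin-1, by -0.14 ± 0.17. In Jag1+/-Rfng+/- replicates 1 and 5 Invs read 2.92 and 2.89, just above and within the range of absent genes. Pkd1 read 5.00 to 5.86 in Jag1+/-Rfng+/- and 5.34 to 6.06 in controls.

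**Figure D3:**
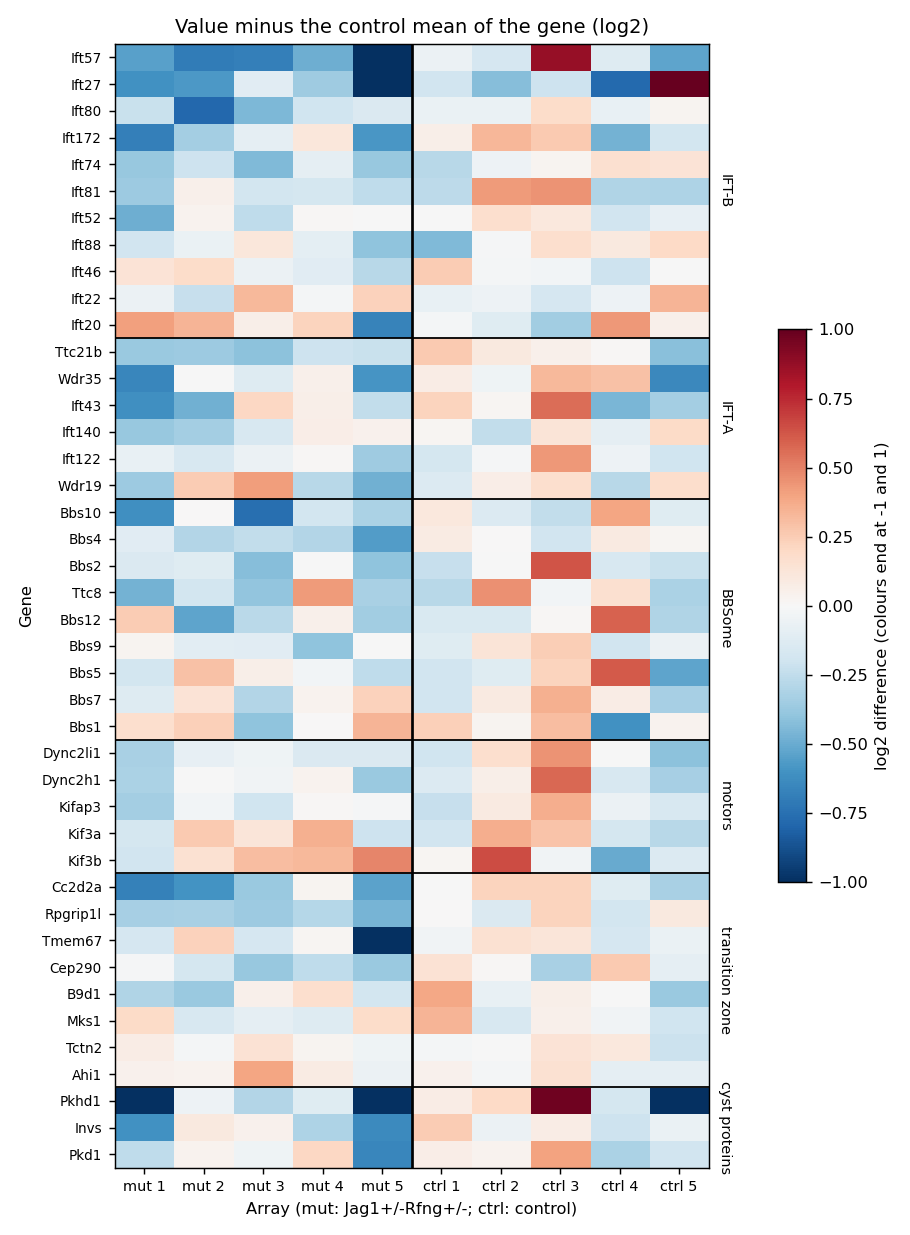
Value of each of the 42 cilium genes on each array minus the control mean of that gene (log2, colour), with the 5 Jag1+/-Rfng+/- arrays left and the 5 control arrays right. Control replicate 3 is mostly red and Jag1+/-Rfng+/- replicates 1 and 5 mostly blue, and the rows of Ift57 and Rpgrip1l are blue in all 5 Jag1+/-Rfng+/- arrays.

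The arrays of 1 group differed in the overall level of the cilium genes as well. Averaged over the 42 genes and relative to the control mean, the Jag1+/-Rfng+/- arrays stood at -0.26, -0.12, -0.13, -0.04 and -0.33, and the control arrays at -0.03, 0.04, 0.19, -0.07 and -0.14. Jag1+/-Rfng+/- replicates 2, 3 and 4 lay within the control range and replicates 1 and 5 below it. Of the 42 genes, 15 were highest on control replicate 3 and 13 were lowest on Jag1+/-Rfng+/- replicate 5, where 10.7% of all genes were highest on the first and 17.2% lowest on the other. The subgroups shared this order in part: the IFT-B mean was -0.44 to -0.11 in Jag1+/-Rfng+/- and -0.14 to 0.12 in controls, and the transition zone mean -0.37 to -0.04 and -0.16 to 0.11. The motor mean overlapped almost fully, at -0.27 to 0.12 in Jag1+/-Rfng+/- and -0.26 to 0.33 in controls.

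Markers of bile duct cells and portal fibroblasts were lower in Jag1+/-Rfng+/- by larger amounts, though 0 passed the adjusted threshold. The mean of the 13 biliary epithelium markers stood at -0.93 to -0.34 in Jag1+/-Rfng+/- and at -0.36 to 0.49 in controls, with 11 markers lower, 9 of them at an unadjusted p under 0.05, and 2 higher, Cldn4 and Cldn7, both under 0.05. The mean of the 12 portal fibroblast markers stood at -1.59 to -0.07 in Jag1+/-Rfng+/- and at -0.66 to 0.46 in controls, with 11 markers lower, 7 of them under 0.05. Control replicate 3 was highest, and Jag1+/-Rfng+/- replicates 1 and 5 lowest, in both marker lists as in the cilium genes. The median difference was 0.04 for hepatocyte, 0.17 for endothelial, 0.27 for macrophage, -0.16 for smooth muscle, -0.58 for lymphocyte and 0.49 for neutrophil markers.

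**Figure D4:**
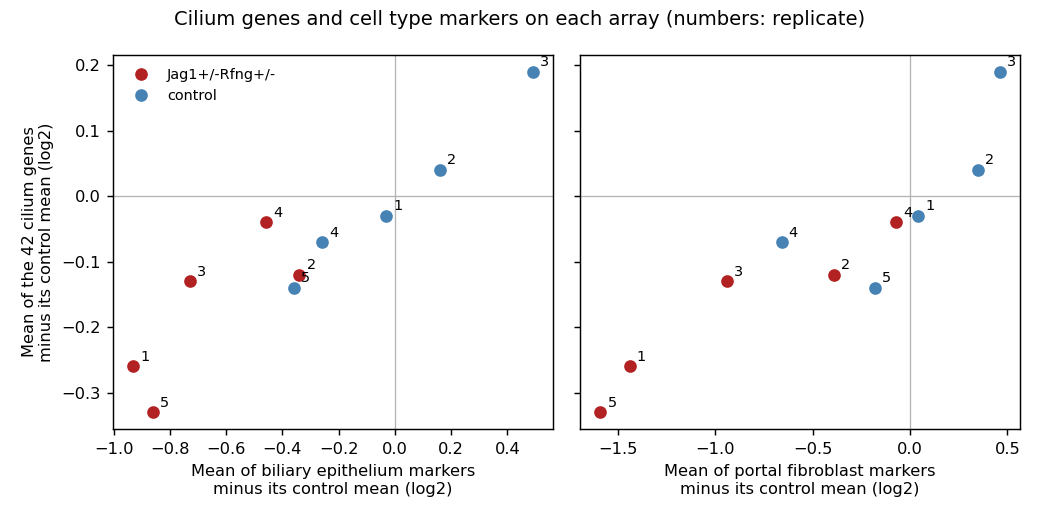
Mean of the 42 cilium genes on each array against the mean of the biliary epithelium markers (left) and of the portal fibroblast markers (right), each relative to its control mean on a log2 scale; numbers are replicates. Control replicate 3 lies at the top right, and Jag1+/-Rfng+/- replicates 1 and 5 at the bottom left of both panels.

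The lean to lower values was not seen for the genes as a whole with the biliary or fibroblast marker mean as a covariate. Both marker means were themselves lower in Jag1+/-Rfng+/- (-0.66 and -0.89 relative to the control mean), so neither fit can part marker level from genotype. In these fits the targeted gene Jag1, at -1.33 without a covariate, differed by 0.22 and -0.22. Rfng, at -0.46 without a covariate, differed by -0.66 and -0.56. With the biliary marker mean as a covariate in limma, 17 of 42 genes were lower and the median was 0.14, although the biliary means of the groups overlapped only between -0.36 and -0.34, so that marker level and genotype are hard to part in this fit. At an unadjusted p under 0.05, 2 of the 42 were lower and 3 higher in it, against the 4.25% of all genes that were lower and 4.9% that were higher, and 52.7% of all genes were lower at any p. With the portal fibroblast mean as a covariate 18 were lower and the median was 0.04, while 52.8% of all genes were lower. There 2 of the 42 were lower and 1 higher at an unadjusted p under 0.05, against 3.25% and 3.99% of all genes. With the hepatocyte mean 34 were lower and the median was -0.13, while 51.9% of all genes were lower. The single genes parted. Bbs4 differed by -0.41 with the biliary and -0.32 with the fibroblast covariate (limma adjusted p = 0.501 and 0.684), both under an unadjusted p of 0.05. Ift80 differed by -0.43 in both fits (limma adjusted p = 0.652 with the fibroblast covariate, where alone it lay under an unadjusted p of 0.05).

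Rpgrip1l differed by -0.22 and -0.25 with the biliary and fibroblast covariates. Ift57 shrank to -0.06 with the biliary covariate and -0.39 with the fibroblast one, and Cc2d2a to -0.05 and -0.14. None of these 3 genes reached an unadjusted p of 0.05 in either fit. The same held for Ift74, at -0.26 and -0.24, for Ttc21b, at -0.14 and -0.25, and for Bbs10, at -0.34 and -0.35. Pkhd1 turned to 0.77 ± 0.24 log2 (SE) with the biliary covariate (limma adjusted p = 0.402) and 0.20 with the fibroblast one. Kif3a, near 0 without a covariate, read 0.61 ± 0.17 and 0.45 ± 0.14 log2 (SE) higher (limma adjusted p = 0.353 and 0.607). Cep290 differed by -0.43 and Dync2h1 by 0.43 with the biliary covariate (limma adjusted p = 0.539 and 0.451). In the same fits 0 of the 42 genes passed an adjusted p of 0.05.

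**Figure D5:**
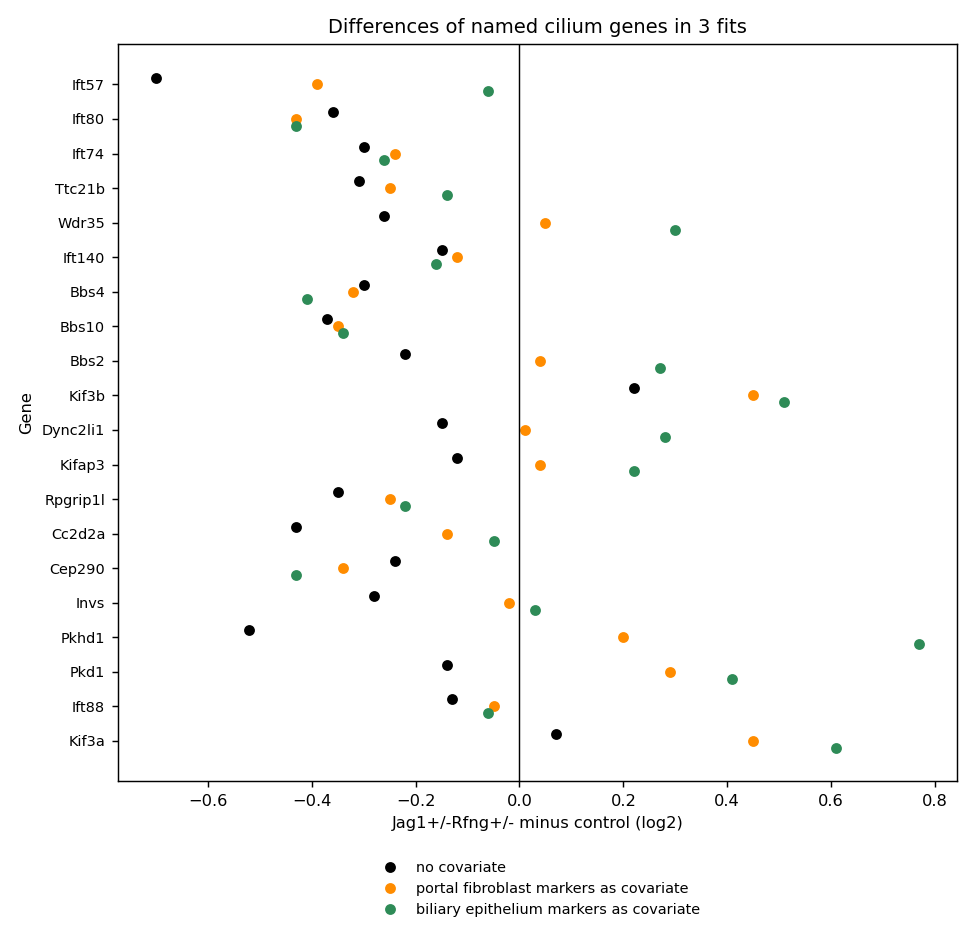
Log2 difference, Jag1+/-Rfng+/- minus control, of the 20 named cilium genes with no covariate (black), with the portal fibroblast marker mean (orange) and with the biliary epithelium marker mean (green) as a covariate in limma. Bbs4, Bbs10, Ift74, Ift80 and Ift140 are among the genes that stay left of 0 in all 3 fits with little change, while Pkhd1 lies at -0.52, 0.20 and 0.77.

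Among the 7 arrays that share the only sample-name number found in both groups, a possible batch of unstated meaning (4 Jag1+/-Rfng+/- and 3 control), 36 of 42 genes were lower with a median of -0.22, and 8 were lower at an unadjusted p under 0.05. In that fit 52% of all genes were lower, and 3.45% at that p. Without Jag1+/-Rfng+/- replicate 5 as well, 31 were lower and 3 reached that p, against 51.8% and 3.01% of all genes. The other numbers hold 1 array each. Without Jag1+/-Rfng+/- replicate 5 alone, 33 of 42 were lower with a median of -0.15, and 7 were lower at an unadjusted p under 0.05, against 51.5% and 3.24% of all genes. Of the 8 genes, Ift57, Ift80, Bbs4, Cc2d2a and Rpgrip1l stayed under 0.05 when any single array was left out, Ift74 in 7, Bbs10 in 5 and Ttc21b in 4 of the 10 such fits.

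Other genes of the cilium were taken in 8 lists chosen by function, also with earlier results of these data known. Of 92 measured genes in these lists 55, or 59.8%, were lower, with a median of -0.07, and 21 of the 92 had a mean within the range of absent genes. At an unadjusted p under 0.05, 4 were lower, or 4.35%, near the 3.79% of all genes, and 1 was higher, with 0 past the adjusted threshold. Further IFT, BBSome and motor genes had a median of -0.07 with 9 of 14 lower, and further transition zone and nephronophthisis genes -0.09 with 8 of 12 lower. Of the second list, Tmem231 and Tmem17, membrane proteins of the transition zone, differed by -0.29 and -0.33 (limma adjusted p = 0.706 and 0.698), Tmem17 with all Jag1+/-Rfng+/- arrays within the range of absent genes. Genes of the centriole appendages and of early ciliogenesis lay at a median of 0.01 with 7 of 15 lower. Whether these lists differ from the 42 genes was not tested.

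The Hedgehog pathway, which in mammals signals through the primary cilium, lay at a median of -0.22 with 11 of 14 genes lower, and at -0.13 without Jag1+/-Rfng+/- replicate 5. Over all genes 51.5% were lower. Of the 14 genes, 2 had a mean within the range of absent genes. Shh, among the lower ones, lay in that range on 5 Jag1+/-Rfng+/- and 4 control arrays. With the biliary covariate 5 of the 14 were lower and the median was 0.03, and with the fibroblast covariate 6 were lower and the median was 0.10. Smo, the transducer that moves into the cilium, read 4.67, 5.33, 5.55, 5.83 and 4.74 in Jag1+/-Rfng+/- and 5.72, 5.82, 6.02, 5.36 and 5.60 in controls (limma adjusted p = 0.735). Its low arrays were again Jag1+/-Rfng+/- replicates 1 and 5. Smo differed by -0.48, and by -0.36 without Jag1+/-Rfng+/- replicate 5. With the biliary and fibroblast covariates it differed by 0.14 and 0.08. Sufu, which holds the Gli factors back, differed by -0.36 (limma adjusted p = 0.706), and the target gene Gli1 by -0.21. Of the RFX and FOXJ1 factors, 5 of 7 read higher and 2 lower, 0 of them at an unadjusted p under 0.05. Rfx4, among the higher, read within the range of absent genes on all 10 arrays. Rfx3, known to drive ciliary genes, differed by -0.28 ± 0.23 log2 (SE), and Foxj1, the regulator of motile cilia, by 0.27 ± 0.15. For Foxj1, 2 control arrays lay within the range of absent genes.

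Of 12 motile cilium genes 9 had a mean within the range of absent genes, against 2 of the 42 primary cilium genes, Bbs12 and Ahi1. Dnah5, an axonemal dynein gene, differed by 0.25 (limma adjusted p = 0.659) with all 10 arrays inside that range. Ciliary membrane GTPases and their cargo genes had a median of -0.05 with 6 of 10 lower, and polycystic liver disease genes, most of which act in the endoplasmic reticulum, -0.12 with 6 of 8 lower and 0 under an unadjusted p of 0.05.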

How the data were processed

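The authors deposited a table of log2 intensities of 33649 probe sets on 10 arrays. Per the submitters' processing notes, RMA and Partek 6.6 were among the tools, in unstated roles. RMA subtracts background, makes the distributions of arrays equal and fits 1 value to the probes of a set. Differences of dim genes may be understated in such values, which was not measured here. No detection call accompanies a value. The array annotation gave 1 gene symbol for 23521 probe sets, several for 1814 and none for 8314; 23328 matched a RefSeq gene by Entrez identifier and took its symbol, and 193 kept the array's. Of several probe sets of a gene, the one with the highest mean was used. No 2 arrays held identical values (0 pairs). The table held 0 columns of no sample.

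Each gene was tested between groups by limma 3.58.1 under R 4.3.3 (two-sided moderated test from lmFit and eBayes, Benjamini-Hochberg adjustment over 22180 genes, threshold 0.05), tested on simulated data. Marker covariates were list means per array. An exact permutation test over 252 splits was run for Jag1 and Rfng. Promoter sequences are RefSeq's for GRCm38.p6. The genes and lists were chosen with earlier results of these data known, so no list was tested as a whole. Named with values are, per subgroup, the 3 lowest p, genes whose groups lie apart, and Pkhd1, Pkd1, Ift88, Kif3a and Cep290; per other list, up to 3 genes with the lowest unadjusted p under 0.05, and Rfx3 and Foxj1; any other gene was picked with its values in view. The 23 alternatives left out each array in turn, added a replicate block or a marker covariate, kept arrays sharing a sample-name number, or changed normalization, weights, variance moderation, filter or probe sets.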

Additional observations from a re-analysis of the deposited data

Results flagged for a closer look

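In 84 groups of 5 values, 42 genes in each genotype, 4 held a value far from the other 4, with a gap of more than 0.71 of the range, and chance gives about 1 in 20. Tmem67 read 3.60 in Jag1+/-Rfng+/- replicate 5, against 4.89 to 5.29 in the other Jag1+/-Rfng+/- arrays. Ift27 read 7.60 in control replicate 5, against 5.23 to 5.81 in the other controls. Ift22 read 4.88 in control replicate 5, against 4.37 to 4.49. Bbs2 read 3.82 in control replicate 3, against 2.96 to 3.19.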

How the results depend on the processing

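In all 23 alternatives 0 cilium genes passed the adjusted threshold, against 0 to 11 among all genes tested. Leaving out single arrays gave 6 to 9 genes lower at an unadjusted p under 0.05, against 3.24% to 4.24% of all genes, and 0 to 1 higher. At any p 32 to 36 were lower, against 49.9% to 52.8% of all genes, with a median between -0.22 and -0.08. The motor median lay between -0.17 and 0.01, above 0 without control replicate 3. The 1 higher gene appeared without control replicate 2. Jag1 differed by -1.61 to -1.11 in these fits, and by -1.61 and -1.53 with an exact permutation p under the threshold (0.0159 and 0.0476) without control replicate 4 or 5. Under the replicate block 8 genes were lower at an unadjusted p under 0.05, against 3.75% of all genes. At any p 34 were lower, against 51.5% of all genes, with a median of -0.15. Same-numbered arrays deviated together with correlations of only -0.23 to 0.06, and 1 of 10 arrays correlated best with its own number. These values gave no sign that the numbers pair the samples, but cannot exclude a small shared effect. With the biliary covariate 2 genes were lower and 3 higher at an unadjusted p under 0.05 (4.25% and 4.9% of all genes), 17 lower at any p, and the medians were 0.14 over all, -0.06 for IFT-B, 0.18 for IFT-A, 0.16 for BBSome, 0.43 for motor, -0.01 for transition zone and 0.41 for cyst protein genes. It turned Wdr35 to 0.30, Bbs2 to 0.27, Dync2li1 to 0.28, Kifap3 to 0.22, Invs to 0.03, Pkhd1 to 0.77 and Pkd1 to 0.41. With the fibroblast covariate 2 were lower and 1 higher (3.25% and 3.99% of all genes), 18 lower at any p, and the medians were 0.04 over all, -0.05 for IFT-B, 0.05 for IFT-A, 0.03 for BBSome, 0.18 for motor, -0.07 for transition zone and 0.20 for cyst protein genes. It turned Wdr35 to 0.05, Bbs2 to 0.04, Dync2li1 to 0.01, Kifap3 to 0.04, Pkhd1 to 0.20 and Pkd1 to 0.29. Among genes above the median level (3.74), where only 27 of the 42 were tested, 3 were lower at that p and 20 at any p. In that fit 4.76% of all genes were lower at that p and 56.9% at any p. The motor median over 3 genes was 0.07. Within the arrays sharing a sample-name number Kif3a was -0.02. Without replicate 5 as well, 3 genes were lower at that p (3.01% of all genes), the cyst protein median was 0.01, Invs 0.01 and Pkd1 0.02. Why these values moved was not tested, beyond the smaller number of genes or arrays in these fits. Signal over background could not be judged per probe.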
